A study of Mus musculus with 20 samples.

Results

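The genes described here are 10 regulators of muscle protein breakdown, the ubiquitin ligase genes Trim63, Fbxo32, Fbxo30, Fbxo21, Trim32, Traf6 and Nedd4 and the FOXO transcription factor genes Foxo1, Foxo3 and Foxo4. They were chosen by name, and all 10 were found among the 55335 genes of the processed table by matching Ensembl gene IDs to GENCODE M39. The study overexpressed the circadian clock repressors PER1 or PER2 in C2C12 myotubes and sequenced poly(A) RNA from 20 libraries. C2C12 is a mouse myoblast line, a single cell line with no other cell types added, whose cells fuse into myotubes when serum is lowered, here for 3 days in medium with horse serum and insulin. On day 4 the myotubes received an adenovirus and RNA was taken 48 h later. In the Per1 experiment 5 libraries came from myotubes given a virus that carries Per1 and Gfp and 5 from myotubes given a virus with Gfp only. In the Per2 experiment 5 libraries came from a virus with Per2 and Gfp and 5 others from the Gfp virus. All transgenes were driven by cytomegalovirus promoters, and the Per viruses were used at a higher concentration than the Gfp virus, so that virus dose and the PER proteins cannot be told apart. The Gfp libraries were assigned to an experiment by their number series, 11 and 13 to 16 with Per1 (libraries 11 to 15) and 1 to 5 with Per2 (libraries 1 to 5). The methods of the study place the sequenced RNA within an experimental replicate. The p values therefore speak only to variation among cultures of a replicate, which may be technical. Whether the Per1 and Per2 experiments belonged to the same replicate is not stated.

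Muscle loses protein in large part through the ubiquitin-proteasome system, in which an E3 ligase selects the protein that is tagged with ubiquitin and then degraded. Trim63, known as MuRF1, is a RING-type ligase found in striated muscle that acts on myosin and other thick filament proteins, and Fbxo32, known as MAFbx or atrogin-1, is the substrate-binding F-box subunit of a cullin-based ligase. Transcription of both genes rises in many models of muscle wasting. The FOXO factors bind their promoters when they are in the nucleus, and kinases of the insulin and IGF1 pathway, above all AKT, phosphorylate FOXO proteins and keep them in the cytoplasm. The amount of Foxo mRNA therefore does not give FOXO activity, which was not measured here, and neither were the ligase proteins.

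The promoters of the members that were lower in Per1 myotubes are shown for the sequence a FOXO factor could read. RefSeq entries (GRCm38.p6) were found for 8 of the 10 members and not used for Fbxo32 and Foxo4. The 250 bases before each start site were searched on both strands for the FOXO core GTAAACA, the E-box CACGTG read by the clock activators BMAL1 and CLOCK, and the insulin response element core CAAAACA. Matches are in capitals, and the motifs do not overlap one another in these sequences.
Trim63 (chr4:134314870-134315119, plus strand): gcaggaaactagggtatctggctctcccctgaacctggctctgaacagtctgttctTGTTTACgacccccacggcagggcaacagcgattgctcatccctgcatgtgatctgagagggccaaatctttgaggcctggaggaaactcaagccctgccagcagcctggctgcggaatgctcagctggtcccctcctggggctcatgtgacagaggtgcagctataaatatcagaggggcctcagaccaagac
Fbxo30 (chr10:11281337-11281586, plus strand): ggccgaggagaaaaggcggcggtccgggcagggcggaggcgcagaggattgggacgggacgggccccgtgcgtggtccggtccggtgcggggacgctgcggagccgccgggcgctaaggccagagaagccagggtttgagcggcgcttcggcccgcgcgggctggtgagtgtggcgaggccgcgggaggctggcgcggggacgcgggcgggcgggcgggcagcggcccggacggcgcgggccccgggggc
Traf6 (chr2:101678170-101678419, plus strand): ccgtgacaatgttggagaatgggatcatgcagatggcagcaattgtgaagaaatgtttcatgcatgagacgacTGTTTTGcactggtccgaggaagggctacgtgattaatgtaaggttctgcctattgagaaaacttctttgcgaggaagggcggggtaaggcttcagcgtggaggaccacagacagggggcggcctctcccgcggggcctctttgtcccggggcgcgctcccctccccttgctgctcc
Foxo1 (chr3:52268087-52268336, plus strand): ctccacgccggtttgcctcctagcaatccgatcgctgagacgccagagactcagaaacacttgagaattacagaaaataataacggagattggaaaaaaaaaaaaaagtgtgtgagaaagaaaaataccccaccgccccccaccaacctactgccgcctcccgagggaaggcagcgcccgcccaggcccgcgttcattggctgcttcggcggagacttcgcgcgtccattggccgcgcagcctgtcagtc
The Trim63 promoter held 1 FOXO core, on the minus strand, so that it reads TGTTTAC above, and its 5′-most base on the plus strand lies 194 bases before the start. The Traf6 promoter held 1 insulin response element core on the minus strand, 177 bases before the start. No match to the 3 motifs was found in the windows of the other 6 members with an entry. Of 32851 promoters of the same length, 3.17% held the FOXO core, 6.02% the E-box and 5.56% the insulin response element core. A match is a description of the letters and does not show a bound site.

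The processed values are the authors' regularized log2 values (rlog), and without read counts the sequencing depth is unknown. The transformation draws differences toward 0, and differences and percentages below are on that shrunken scale. The table joins 2 separate transformations, as 2712 genes had a value of 0 throughout the Per1 experiment but not in the Per2 experiment and 2391 the reverse, and each Per group was therefore set only against the Gfp libraries of the same experiment. The limma test (two-sided, Benjamini-Hochberg adjustment over all genes tested) was applied to genes whose rlog averaged 3 or more, and the words higher, lower and called stand for an adjusted p of at most 0.05. In the Per1 experiment 8363 of 20559 genes were called, 4131 higher and 4232 lower, and in the Per2 experiment 7442 of 20628 genes, 3842 higher and 3600 lower. After each library was centred on its median, which lowered the differences by 0.022 in both experiments, the split was 3080 higher and 5912 lower with Per1 and 2765 and 5118 with Per2. The overexpressed genes fit the labels. Per1 was at 15.22 to 15.30 rlog units with Gfp and 19.39 to 19.64 with Per1, and Per2 was at 14.73 to 14.96 with Gfp and 19.65 to 19.77 with Per2. All 10 myotube markers, among them Myog, Mymk, Ckm and Ttn, had a mean over 10 rlog units in every group.

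In control myotubes the ligases and FOXO factors were all transcribed, in an order that was close to the same in both experiments. To compare genes, the log2 of the exon length in kb was taken from each rlog value. Nedd4, a HECT-type ligase, stood highest in both experiments, at 13.70 ± 0.025 (SD, n = 5) in the Gfp libraries of the Per1 experiment, followed by Trim63 at 11.14 ± 0.014 (SD, n = 5). The next in order in that experiment were Foxo4, Fbxo30, Foxo3, Fbxo32, Trim32, Foxo1, Fbxo21 and Traf6, the last at 8.94 ± 0.018 (SD, n = 5). No neighbours in this order overlapped in their libraries. In the Gfp libraries of the Per2 experiment the order was the same, but Foxo3 and Fbxo32, Fbxo32 and Trim32, and Foxo1 and Fbxo21 overlapped and did not differ beyond their spread. The exon length counts all annotated isoforms, so a gene used mainly as a short transcript has a higher true level per kb than given. Of the sequences of 31 bases in Nedd4 transcripts 11.4% were also in transcripts of other genes, 2 of which overlap its exons on the same strand, against at most 2.96% for the other members.

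**Figure D1:**
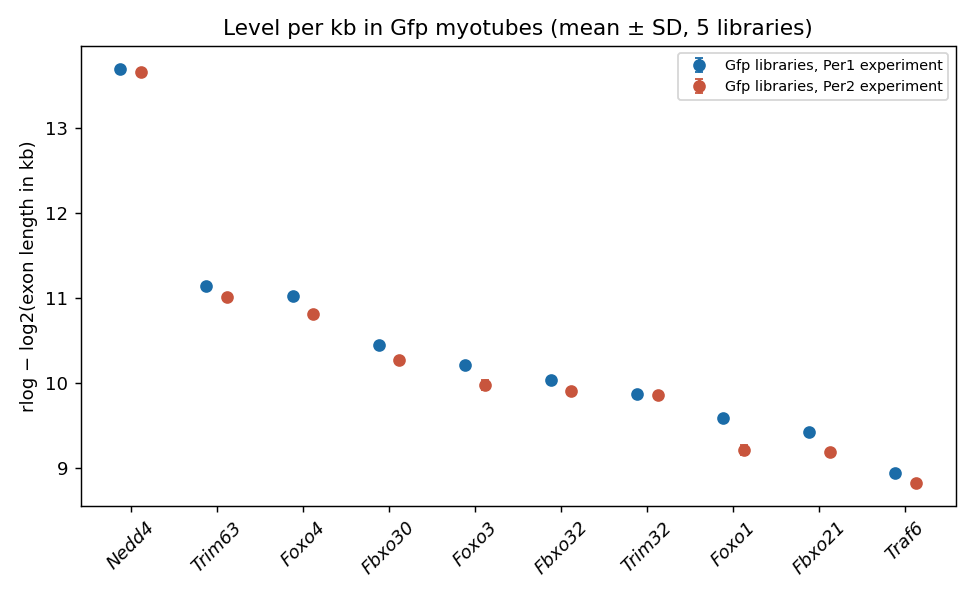
Level of the 10 genes per kb of exon in Gfp myotubes, as rlog minus log2 of the exon length in kb (vertical axis), with points for the mean and bars for the SD of 5 libraries in the Per1 experiment (blue) and the Per2 experiment (red). Nedd4 stands above the other genes, at 13.70 and 13.66, and Traf6 lowest, at 8.94 and 8.83. The experiments were transformed separately, so a blue and a red point of a gene are not to be compared.

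With Per1, 3 of the 10 genes were higher (Fbxo32, Fbxo21 and Foxo4), 4 were lower (Trim63, Fbxo30, Foxo1 and Traf6) and 3 were not called (Trim32, Nedd4 and Foxo3). In that comparison 20.1% of all genes tested were called higher and 20.6% lower, 40.7% together, and 56.3% of the 7413 genes with a mean at or above that of the lowest member, so that 7 of 10 is not far above what genes at these levels show. With Per2, 3 were higher (Fbxo32, Fbxo21 and Foxo4), 2 were lower (Fbxo30 and Trim32) and 5 were not called. The background there was 18.6% higher and 17.5% lower, 36.1% together, and 48.4% of the 7744 genes at the level of the members or above, which is about the share of the members. None of the 10 reached a log2 difference of 0.5 in size, a threshold passed together with the adjusted p by 0.696% of the genes tested with Per1 and 0.621% with Per2. The largest difference of a member was 0.19 in size with Per1 and 0.22 with Per2. The groups did not overlap for 7 members with Per1 (29.7% of all genes tested) and for 4 with Per2 (26.3%). Those shares cover genes of all levels, and a share at the level of the members was not computed. Higher with both were 3 members and lower with both was 1, Fbxo30, and none was called in opposite directions. Of the 20153 genes tested in both experiments 2354 were higher and 2134 lower in both, 22.3% together, and 274 were called in opposite directions. Those 20153 genes were not matched to the members in level.

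**Figure D2:**
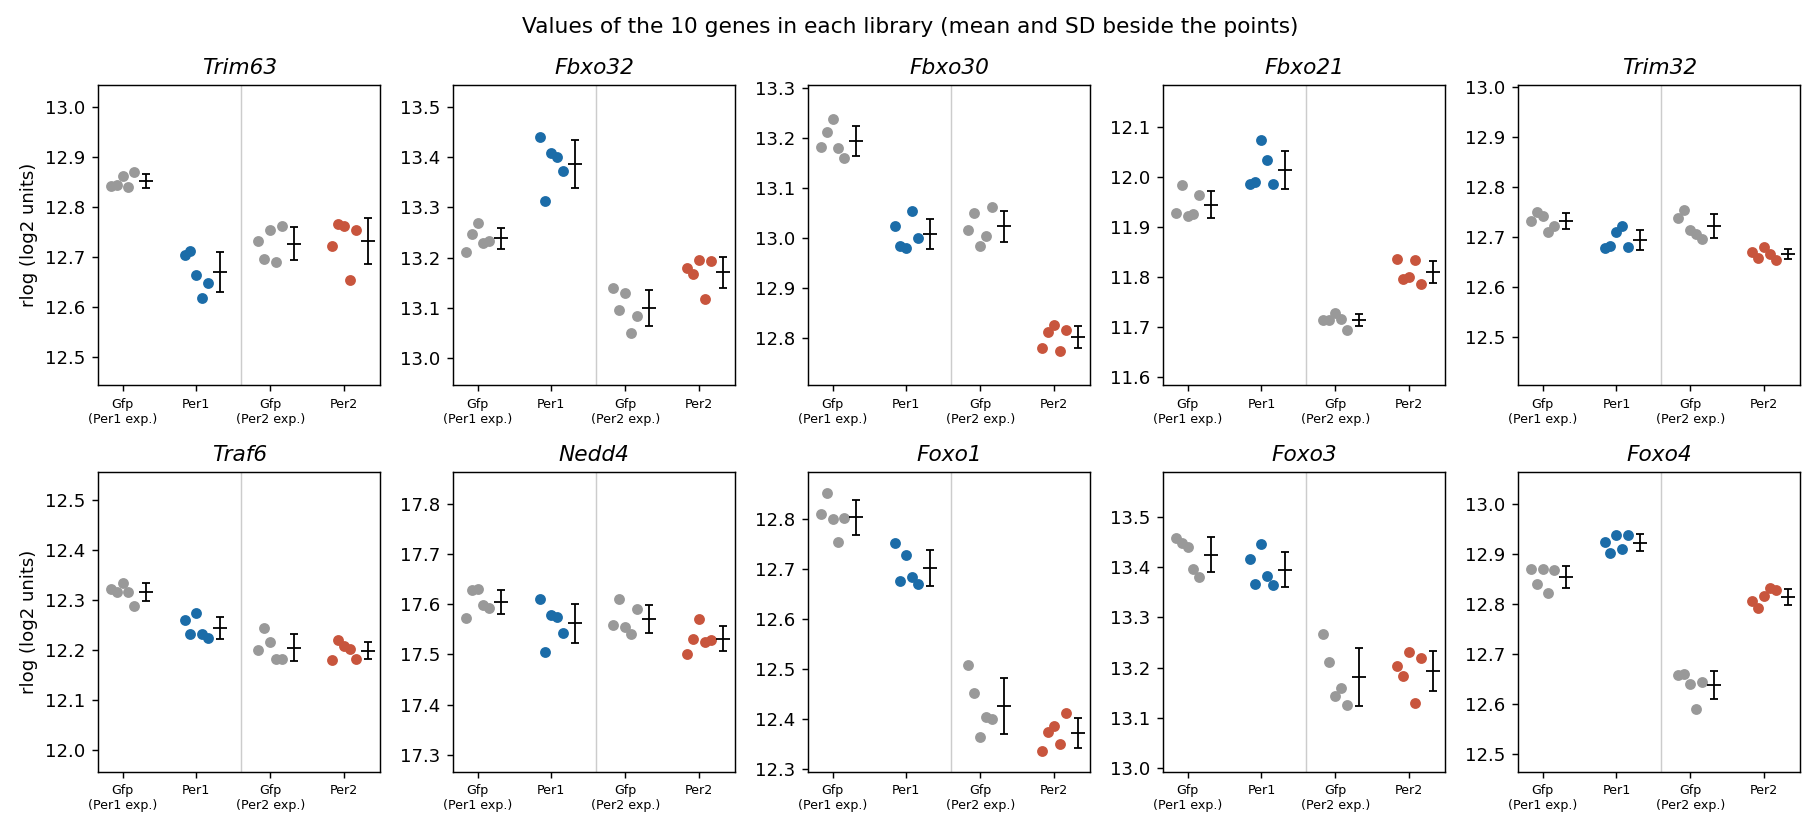
Values of the 10 genes in each of the 20 libraries, in rlog units (log2), with Gfp libraries in grey, Per1 in blue and Per2 in red, the mean and SD of each group of 5 beside its points, and the same span on every vertical axis. Each Per group is to be read against the Gfp group of its own experiment, on its left. Trim63 in Per1 libraries (12.62 to 12.71) lies below every Gfp library of that experiment (12.84 to 12.87), while the Per2 libraries (12.66 to 12.77) overlap theirs (12.69 to 12.76).

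Trim63 and Fbxo32, the pair most used as marks of muscle atrophy, moved in opposite directions with Per1. Trim63 (chromosome 4 of GRCm39, 134042393 to 134056948) was at 12.84, 12.85, 12.86, 12.84 and 12.87 rlog units in Gfp libraries 11, 13, 14, 15 and 16 and at 12.71, 12.71, 12.66, 12.62 and 12.65 in Per1 libraries 11 to 15. Every Per1 library was below every Gfp library. The log2 difference was −0.18 (standard error 0.020, adjusted p = 4.40e-06), and the level fell by 11.9%. Fbxo32 (chromosome 15, 58039275 to 58078741) was at 13.21, 13.25, 13.27, 13.23 and 13.23 with Gfp and at 13.44, 13.31, 13.41, 13.40 and 13.37 with Per1. Again the groups did not overlap, now with Per1 above, although Per1 library 12 came close to the highest Gfp library. The log2 difference was 0.15 (standard error 0.022, adjusted p = 8.07e-05), a rise of 10.9%. Both calls held under all 17 alternatives tried.

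With Per2, the Trim63 values of the groups lay on top of each other. They were 12.73, 12.70, 12.76, 12.69 and 12.76 rlog units in Gfp libraries 1 to 5 and 12.72, 12.77, 12.76, 12.66 and 12.75 in Per2 libraries 1 to 5. The log2 difference was 0.0045 (standard error 0.025, adjusted p = 0.909), with a 95% interval from −0.048 to 0.057. Fbxo32 was at 13.14, 13.09, 13.13, 13.05 and 13.08 with Gfp and at 13.18, 13.17, 13.19, 13.12 and 13.19 with Per2. The groups overlapped through Per2 library 4, the lowest of its group, and the log2 difference was 0.071 (standard error 0.022, adjusted p = 0.0209). This call was lost without Gfp library 4 (0.059, adjusted p = 0.0533), without Per2 library 3 (0.065, adjusted p = 0.0547) or Per2 library 5 (0.065, adjusted p = 0.0563), and after median centring (0.050, adjusted p = 0.115). Whether the difference in Trim63 or Fbxo32 itself differs between Per1 and Per2 was not tested, since the experiments were transformed apart.

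Fbxo30, known as MUSA1, is an F-box protein whose gene is induced in denervated mouse muscle. It was lower in both experiments. With Per2 it had the largest difference of the members, while with Per1 its difference was within a standard error of that of Trim63. It was at 13.18, 13.21, 13.24, 13.18 and 13.16 rlog units in the Gfp libraries and at 13.02, 12.98, 12.98, 13.05 and 13.00 in the Per1 libraries, a log2 difference of −0.19 (adjusted p = 3.64e-06, standard error 0.020) by which the level fell by 12.1%. In the Per2 experiment it was at 13.02, 13.05, 12.98, 13.00 and 13.06 with Gfp and at 12.78, 12.81, 12.83, 12.78 and 12.82 with Per2. The groups stood apart in both experiments, and the log2 difference with Per2 was −0.22 (standard error 0.020, adjusted p = 1.55e-06), where the level fell by 14.2%. Among all genes tested, 90.2% with Per1 and 94.2% with Per2 had a smaller difference in size. An annotated gene on the opposite strand overlaps the exons of Fbxo30, and the same holds for Fbxo32, Foxo1 and Foxo3. Whether counting used the strand is not stated, so reads of these 4 members and of their antisense neighbours may not have been told apart.

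Fbxo21, known as SMART, another F-box subunit needed for full denervation atrophy in mice, was slightly higher in both experiments. It ranged from 11.92 to 11.98 rlog units with Gfp and from 11.99 to 12.07 with Per1, where the lowest Per1 library was only just above the highest Gfp library (log2 difference 0.069, standard error 0.022, adjusted p = 0.0205). That call was lost when Gfp library 14 was left out (0.064, adjusted p = 0.0503), when Per1 library 13 was left out (0.055, adjusted p = 0.0592) and after median centring (0.047, adjusted p = 0.109). With Per2 it was at 11.79 to 11.84 against 11.69 to 11.73 with Gfp, a log2 difference of 0.096 (adjusted p = 0.00126, standard error 0.019) that was called under all alternatives. The Fbxo21 groups did not overlap in either experiment.

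Trim32, a RING-type ligase that acts on desmin filaments, differed little between the groups. It was at 12.71 to 12.75 rlog units with Gfp and 12.68 to 12.72 with Per1, and the log2 difference of −0.037 (adjusted p = 0.0832, standard error 0.016) was called only after median centring (−0.059, adjusted p = 0.0134). With Per2 it was at 12.65 to 12.68 against 12.70 to 12.75 with Gfp, a log2 difference of −0.056 (adjusted p = 0.0228, standard error 0.018). The groups did not overlap, but the call was lost without Gfp library 2 (−0.048, adjusted p = 0.0522), Per2 library 2 (−0.054, adjusted p = 0.055) or Per2 library 5 (−0.053, adjusted p = 0.0591).

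Traf6, the ligase that passes signals from Toll-like and interleukin 1 receptors to NF-κB by building ubiquitin chains that do not lead to degradation, was lower with Per1. It ranged from 12.29 to 12.34 rlog units with Gfp and from 12.23 to 12.27 with Per1, without overlap (log2 difference −0.071, standard error 0.017, adjusted p = 0.004). With Per2 the ranges, 12.18 to 12.25 with Gfp and 12.18 to 12.22 with Per2, overlapped (log2 difference −0.0064, standard error 0.019, adjusted p = 0.834). Nedd4 was not called in either experiment. It was at 17.57 to 17.63 with Gfp and 17.51 to 17.61 with Per1 (log2 difference −0.042, adjusted p = 0.122, 95% interval −0.087 to 0.0022). It was called lower with Per1 when Per1 library 11, its highest, was left out (−0.054, adjusted p = 0.048) and after median centring (−0.064, adjusted p = 0.0203), and its sign turned after quantile normalization (0.0086, adjusted p = 0.778). With Per2 its log2 difference was −0.040 (adjusted p = 0.126, 95% interval −0.082 to 0.0016), and −0.062 (adjusted p = 0.0303) after median centring.

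The 3 FOXO factors among the members did not move as a group. Foxo1 was lower with Per1, at 12.75, 12.68, 12.73, 12.68 and 12.67 rlog units against 12.81, 12.85, 12.80, 12.75 and 12.80 with Gfp. The lowest Gfp library, 15, was level with the highest Per1 library, 11, to the second decimal and still above it. Foxo1 fell by 0.10 on the log2 scale (standard error 0.022, adjusted p = 0.00185). With Per2 it was at 12.34 to 12.41 against 12.36 to 12.51 with Gfp, and the difference of −0.054 (standard error 0.027, adjusted p = 0.131, 95% interval −0.11 to 0.0029) was not called. Foxo3, the factor best known for driving Fbxo32, overlapped in both experiments. Its log2 difference was −0.030 with Per1 (13.38 to 13.46 with Gfp and 13.37 to 13.45 with Per1, adjusted p = 0.288, 95% interval −0.075 to 0.016). It was 0.012 with Per2 (13.12 to 13.27 with Gfp and 13.13 to 13.23 with Per2, adjusted p = 0.782, 95% interval −0.048 to 0.072).

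Foxo4, the family member on the X chromosome (100298073 to 100304479 of GRCm39), was higher in both experiments. With Per1 it was at 12.92, 12.90, 12.94, 12.91 and 12.94 rlog units against 12.87, 12.84, 12.87, 12.82 and 12.87 with Gfp (log2 difference 0.069, standard error 0.016, adjusted p = 0.00375). With Per2 it was at 12.81, 12.79, 12.82, 12.83 and 12.83 against 12.66, 12.66, 12.64, 12.59 and 12.65. Every Per library was above every Gfp library in both experiments. The difference with Per2 was 0.18 (standard error 0.019, adjusted p = 7.52e-06), a rise of 13.0%. Gfp library 4 of the Per2 experiment lay below the others of its group, and without it Foxo4 was still called.

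**Figure D3:**
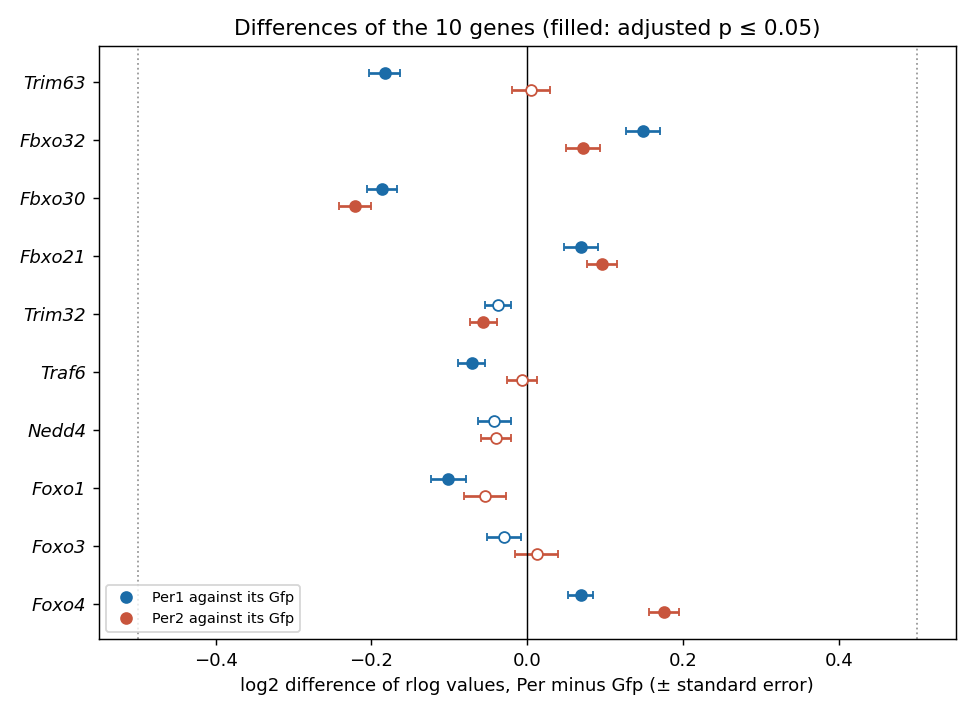
Log2 differences of the 10 genes (horizontal axis, rlog of Per minus rlog of Gfp, with standard errors) in the Per1 experiment (blue) and the Per2 experiment (red), filled where the adjusted p was at most 0.05. Every point lies within the dotted lines at 0.5 in size. Fbxo30 is lower in both, at −0.19 and −0.22, while Trim63 is at −0.18 with Per1 and 0.0045 with Per2, the last with a sign that turned after median centring (−0.017) and without any of 5 single libraries.

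Levels of other cell programs moved in the same libraries. The summed level of the 10 myotube markers was 20.90 to 20.95 on the log2 scale with Gfp and 20.75 to 20.82 with Per1, without overlap, and 8 of the 10 were called lower and none higher. With Per2 the sums overlapped (20.40 to 20.54 with Gfp and 20.39 to 20.46 with Per2), and 4 were called lower and 1, Myh3, higher. The 5 markers of proliferating myoblasts summed to 16.10 to 16.23 with Gfp and 16.18 to 16.33 with Per1, and to 16.27 to 16.43 with Gfp and 16.36 to 16.52 with Per2. With Per1 3 of the 5 were called higher and 1, Mki67 (−0.097), lower, and with Per2 2 were higher and 0 lower. Myf5 rose by 0.53 with Per1 and by 0.14 with Per2. The 5 fibroblast and fibro-adipogenic markers summed to 15.92 to 15.96 with Gfp and 16.12 to 16.25 with Per1, and to 15.71 to 15.89 and 15.99 to 16.04 in the Per2 experiment. These markers went both ways, since Ly6a (0.38 with Per1 and 0.29 with Per2) and Dpt (0.24 and 0.62) were called higher and Pdgfrb (−0.28 and −0.13) lower in both, with Adipoq under the minimum level. The 7 macrophage and leukocyte markers summed to at most 10.36 in any library, with Adgre1 under the minimum in every group, and the 5 endothelial markers to at most 9.88. The part of these shifts in the values of the ligases was not tested, and fewer myotubes and less of an mRNA per myotube cannot be told apart in these libraries.

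Other ubiquitin ligases of muscle were more often lower than higher in both experiments, and several of them moved more than Trim63 or Fbxo32. Of 25 tested, 15 were lower and 2 higher with Per1 (median log2 difference −0.10, against 0.0011 over all genes tested), and 14 were lower and 1 higher with Per2 (median −0.082, against 0.0006). Among all genes tested, 20.6% were lower with Per1 and 17.5% with Per2. Fbxo40, a muscle F-box protein, had the largest difference in both, −0.38 (standard error 0.090, adjusted p = 0.00364) with Per1 and −0.48 (standard error 0.068, adjusted p = 8.82e-05) with Per2. Trim54, which encodes MuRF3, a close relative of Trim63, fell by 0.29 with Per1 and 0.27 with Per2 on the log2 scale. Trim55, another relative in the list, named after its values were seen, moved less. It was not called with Per1 (−0.036, adjusted p = 0.146) and was lower with Per2 (−0.082, adjusted p = 0.0182). Trim72, a membrane repair protein, fell by 0.32 and 0.17, and Asb2, a cullin adaptor, by 0.17 and 0.31. Mdm2, the ligase of p53, fell by 0.11 and 0.30. The genes called higher with Per1 were Skp2, an F-box protein of the cell cycle (0.22, standard error 0.019), and Fbxl22, named after its values were seen. The Fbxl22 call was lost, and the count became 1, without Gfp library 11, 14 or 15 or Per1 library 12 or 14. The same held after median centring and after quantile normalization. The single gene called higher with Per2 was Wwp1 (0.069), also named after its values were seen. With Per2 none was called higher after median centring, and without Gfp library 1 the count was 2. Lower with both were 12 of the 25, against 2134 of 20153 among all genes tested in both experiments. That background was not matched to the list in level.

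The partners that ubiquitin ligases work with, such as E2 enzymes, cullin subunits and adaptors, were more often lower than higher in both experiments. Of 20 such genes, 10 were lower and 1 higher with Per1 (median −0.051), and 8 were lower and 4 higher with Per2 (median −0.023). Among all genes tested 20.6% were lower with Per1 and 17.5% with Per2. In either direction 55% of the partners were called with Per1 and 60% with Per2. The share was 56.3% and 48.4% of genes at the level of the 10 members or above, and it was not computed at the level of the partners. Ubb, a gene that encodes ubiquitin and may share reads with other ubiquitin genes, fell by 0.15 with Per1 (standard error 0.021) and by 0.27 with Per2 (standard error 0.022) on the log2 scale. Ube2b, an E2 enzyme of atrophying muscle, was lower with Per1 (−0.15, standard error 0.016), as was Ube2g1 (−0.11, standard error 0.017), and neither was called with Per2. Ndfip1, an adaptor that activates Nedd4 family ligases, rose by 0.080 with Per1 and by 0.12 with Per2. It was the single partner called higher with Per1, a count that became 3 after quantile normalization, and with Per2 Ube2d1 (0.12), Ndfip2 (0.084) and Ube2v1 (0.084), the last named after their values were seen, were higher too.

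Around Traf6, the clearest change was in Sqstm1, which encodes p62, a ubiquitin-binding scaffold of TRAF6 that is itself removed by autophagy. It fell by 0.26 with Per1 (standard error 0.017) and by 0.46 with Per2 (standard error 0.019) on the log2 scale. Irak4, a kinase upstream of TRAF6, rose by 0.15 and 0.14, and Cyld, which removes the chains TRAF6 builds, fell by 0.11 and 0.13. Of 14 genes of TRAF6 signalling, 3 were higher and 4 lower with Per1 (median −0.012), and 2 were higher and 3 lower with Per2 (median 0.0064). That is 50% of the list called with Per1 and 35.7% with Per2, against 40.7% and 36.1% of all genes tested. The list is thus near this background, which was not matched to it in level. Also lower, named after their values were seen, were Tab2 (−0.056) and Irak1 (−0.050) with Per1 and Map3k7 (−0.069) with Per2. The others higher were Tab1 (0.041) and Tnfaip3 (0.065) with Per1 and Cd40 (0.14) with Per2. Tab1 was named after its values were seen. The count of 3 did not hold when any single library was left out, where it was 1 to 2. It was 1 without Gfp library 11, 14 or 16 or Per1 library 13, after median centring and with no filter. Tnfaip3 was not called without Gfp library 11, 14 or 16 or Per1 library 11, 12 or 13 (adjusted p up to 0.108), with no filter (adjusted p = 0.0851), with array weights (adjusted p = 0.0607) and after median centring (0.043, adjusted p = 0.131).

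Of 24 regulators of FOXO factors, 16 were lower and 1 higher with Per1 (median −0.11), a larger share than with Per2, where 8 were lower and 3 higher (median −0.036). Whether the shares differ was not tested. In either direction 70.8% of the list was called with Per1 and 45.8% with Per2. Among all genes tested, not matched in level, it was 40.7% and 36.1%. Irs2, an insulin receptor substrate whose gene FOXO factors also activate, fell by 0.31 with Per1 (standard error 0.029) and by 0.46 with Per2 (standard error 0.039). Sgk1, a kinase that like AKT phosphorylates FOXO proteins, fell by 0.21 and 0.27, and Sirt1, a deacetylase of FOXO proteins, by 0.24 and 0.17. Prkaa2, a catalytic subunit of AMPK, fell by 0.19 and 0.27. Skp2, Mdm2, Irs2 and Insr also stand in another list. The gene called higher with Per1 was Skp2, and the count was 2 without Per1 library 12. Those higher with Per2, named after their values were seen, were Foxo6 (0.15), Mtor (0.095) and Prkaa1 (0.053), and the count was 1 without Per2 library 3 and after median centring. Foxo6 is itself a FOXO factor and not a regulator of them, although it was placed in this list. With Per1 it was not called (−0.0014, adjusted p = 0.967).

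Other genes that FOXO factors activate went both ways. Of 26, 8 were higher and 12 lower with Per1 (median −0.025), and 7 were higher and 10 lower with Per2 (median −0.031). Called in either direction were 76.9% of the list with Per1 and 65.4% with Per2, against 40.7% and 36.1% of all genes tested. Bnip3, a mitophagy receptor, rose by 0.29 with Per1 (standard error 0.054) and by 0.56 with Per2 (standard error 0.040). Ddit4, an inhibitor of mTORC1 that is also induced by stress and glucocorticoids, rose by 0.32 and 0.15. Pdk4, a kinase that shuts off pyruvate dehydrogenase, fell by 0.29 and 0.27, and Mt2, a metallothionein that may share reads with Mt1, fell by 0.17 and 0.30. Of these 26 genes 6 were higher and 9 lower with both, 57.7% of the list, against 22.3% of all genes tested in both experiments. Called in opposite directions was 1, Cited2 (0.11 with Per1 and −0.11 with Per2), named after its values were seen. The 22.3% covers genes of all levels, and a share at the level of these genes was not computed.

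**Figure D4:**
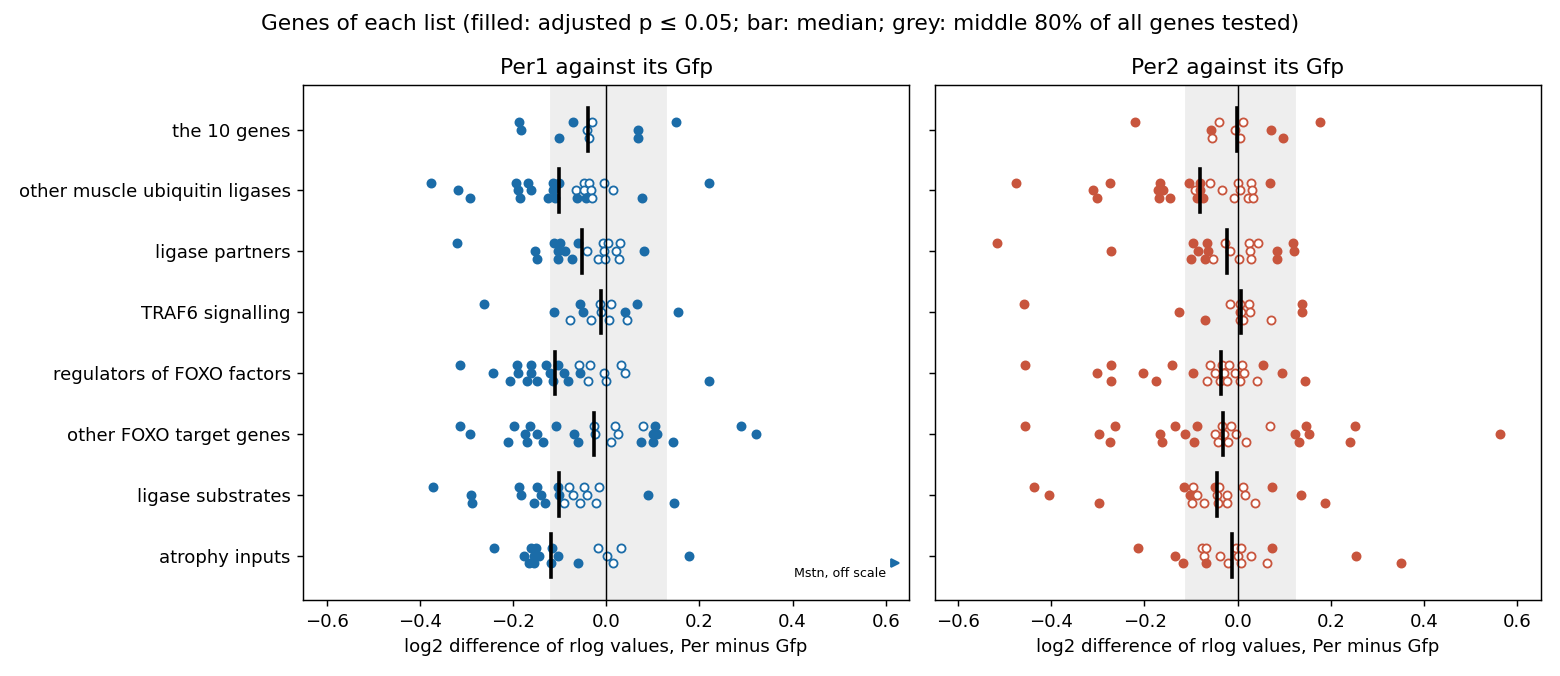
Log2 differences (rlog of Per minus rlog of Gfp) of the genes of each list with Per1 (left) and Per2 (right), a point for each gene, filled where the adjusted p was at most 0.05, a bar for the median of the list and grey for the middle 80% of all genes tested. The median of the other muscle ubiquitin ligases lies at −0.10 with Per1 and −0.082 with Per2, and FOXO target genes spread to both sides. Mstn, at 1.54 with Per1, is drawn as a triangle at the edge.

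Among the proteins these ligases act on, the fast myosin heavy chain genes fell the most. Myh1 fell by 0.29 with Per1 (standard error 0.031) and by 0.44 with Per2 (standard error 0.035), and Myh2 by 0.29 and 0.40. Myh4 was at −0.37 with Per1 (standard error 0.044, adjusted p = 9.12e-06) and −0.099 with Per2 (adjusted p = 0.201), and these neighbouring genes are similar enough that they may share reads. Myh7, the slow myosin heavy chain, fell by 0.19 with Per1 and rose by 0.19 with Per2 (adjusted p = 0.00117 and 0.008). Of 21 substrate genes, 11 were lower and 2 higher with Per1 (median −0.10), the latter being Notch1 (0.15) and Pax7 (0.090), and 6 were lower and 3 higher with Per2 (median −0.044), the latter being Myh7, Notch1 (0.14) and Myod1 (0.073). Notch1, Pax7 and Myod1 were named after their values were seen. Like Myh7, Myod1 was called in opposite directions, as it was lower with Per1 (−0.10, adjusted p = 0.000784). The count of 6 lower with Per2 was 3 without Gfp library 3, Per2 library 2 or Per2 library 5, and with no filter on low values. In either direction 61.9% of the substrate genes were called with Per1 and 42.9% with Per2. Among all genes tested, not matched in level, it was 40.7% and 36.1%. Mybpc1, a myosin-binding protein, was lower with Per2 (−0.30, standard error 0.069).

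Of 18 genes of the pathways that induce or restrain atrophy, 12 were lower and 2 higher with Per1 (median −0.12). With Per2 4 were lower and 3 higher (median −0.012). Called in either direction were 77.8% of the list with Per1 and 38.9% with Per2. Among all genes tested, not matched in level, it was 40.7% and 36.1%. The list joins inducers, inhibitors such as Ppargc1a and Ppargc1b, and response genes, so its counts give no direction for atrophy. Mstn, which encodes the secreted inhibitor of muscle growth myostatin, rose by 1.54 with Per1 (standard error 0.045) and was at 0.0003 with Per2 (standard error 0.062, adjusted p = 0.997). Smad3, a transducer of myostatin signals, fell by 0.24 with Per1 and was at 0.074 with Per2 (adjusted p = 0.0253), a call lost without Gfp library 3, 4 or 5 or Per2 library 1 or 5 (adjusted p up to 0.067), without the minimum level (adjusted p = 0.0568) and after median centring (0.052, adjusted p = 0.141). Nr3c1, the glucocorticoid receptor, fell by 0.15 and 0.21, while Tsc22d3, a gene it activates, rose by 0.18 and 0.25. Fkbp5, another gene of the list that the receptor activates, named after its values were seen, went the other way. It was lower with Per1 (−0.17, adjusted p = 1.68e-05) and not called with Per2 (−0.068, adjusted p = 0.267). Tnfrsf12a, the receptor of the cytokine TWEAK, fell by 0.18 with Per1, and Il6ra, the receptor of interleukin 6, rose by 0.35 with Per2 (standard error 0.031). Also lower, with Per1 and with Per2, were Smad4 (−0.16 and −0.13), and, named after their values were seen, Hdac4 (−0.12 and −0.12) and Nfkb1 (−0.14 and −0.069).

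The genes whose values were most like those of Trim63 and Fbxo32 were found over all 20 libraries, each value taken relative to the Gfp mean of its experiment. Nearest to Trim63 among 14472 protein-coding genes was Pink1, which encodes a mitophagy kinase (root mean square distance 0.032, log2 difference −0.15 with Per1 and −0.014 with Per2). Ppp2r3a (distance 0.033) and Tusc2 (0.034) came next. Nearest to Fbxo32 were Sema3d (distance 0.027, log2 difference 0.15 and 0.074), Pwwp3b (0.028) and Dyrk1b (0.028). Distances of this size are of the order of the spread between the libraries of a group, which was 0.010 to 0.058 (SD) for the members.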

How the data were processed

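The authors used STAR to align the poly(A) RNA-seq reads, took counts per gene and deposited regularized log2 (rlog) values made with DESeq2, in a table of 55335 genes and 20 libraries. The paper names GRCm39 as the genome while the labels name mm10, and the tool versions are not given in the sources used here. GENCODE M39 held 51654 of the gene IDs. The deposited log2 values were tested as they are within each experiment with limma 3.58.1 in R 4.3.3 (trend in the prior variance, mean rlog of at least 3, two-sided, no covariates), in place of a count model, which they do not allow. Sequencing depth is unknown, so counting intervals were not given. No set test was run. The tests were checked on simulated rlog values. The members and lists were chosen with earlier results of these data known, and a gene can stand in more than 1 list. Named list genes are up to 4 called genes of each list with the largest absolute difference in each comparison, and others are said to be named after their values were seen. Alternatives were 7 other settings and leaving out each of the 10 libraries in turn. Protein sequences were not used here. One gene that the naming rule would name is not reported here.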

Additional observations from a re-analysis of the deposited data

Results flagged for a closer look

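Of 40 sets of 5 values (10 genes in 4 groups), 1 held a library whose gap to the nearest of the others took up more of the range of the group than Dixon's 95% critical value of 0.71. This was Foxo4 in Gfp library 4 of the Per2 experiment, at 12.59 rlog units against 12.64 in the next lowest Gfp library, a gap of 0.725 of the range. Chance alone flags about 1 in 20 such sets.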

How the results depend on the processing

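In the Per1 experiment the calls of Trim63, Fbxo32, Fbxo30, Foxo1, Foxo4 and Traf6 held under all 17 alternatives, and in the Per2 experiment those of Fbxo30, Fbxo21 and Foxo4. The count of members lower with Per2 was 2, and 1 to 2 when single libraries were left out. It was 1 without Gfp library 2, Per2 library 2 or Per2 library 5. After median centring 2 members were higher and 6 lower with Per1, against 3 and 4, and 2 were higher and 3 lower with Per2, against 3 and 2. Among values that were not called, the sign turned for Trim63 with Per2 (0.0045) after median centring (−0.017) and without Gfp library 2 or 4 or Per2 library 2, 3 or 5 (single libraries left out, range −0.0049 to 0.024), for Foxo3 with Per2 after median centring (−0.0096) and without Gfp library 5 (single libraries left out, range −0.0022 to 0.034), for Traf6 with Per2 with array weights (0.000064) and without Gfp library 2 (single libraries left out, range −0.012 to 0.0036), and for Nedd4 with Per1 after quantile normalization (0.0086). The cause was not tested. The 63 differences of list genes that the naming rule picked and the main fit called gave 1071 values under the alternatives. Of these, 1054 kept the call and direction, 17 lost the call and none reversed. These genes were picked for calls and large differences in the same data, so that most would hold was largely set in advance. Values of named genes that were not called, and genes named after their values were seen, were not counted. The library numbers gave no pairing, since the deviations of same-numbered libraries correlated at −0.015 to 0.14 in the Per1 experiment (4 shared numbers) and −0.10 to 0.18 in the Per2 experiment (5), and only 1 library of each experiment correlated best with its own number. With the replicate block, 3 members were higher and 4 lower with Per1, which leaves out Gfp library 16 and Per1 library 12, and 3 higher and 2 lower with Per2, and the block changed no call of a member. Among list genes it took the TRAF6 signalling genes higher with Per1 from 3 to 1 and the FOXO regulators higher with Per1 from 1 to 2, and Tnfaip3 lost its call (adjusted p = 0.106). Unknown depth limits what can be said of differences near 0, and the shrinkage of rlog values limits their size.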
